A study of Mus musculus and Acomys cahirinus with 84 samples.

Results

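The genes described here are 57 genes of mitosis: the kinases, checkpoint proteins, kinetochore and centromere proteins, kinesin motors, spindle and cytokinesis factors, condensin subunits and cohesion regulators that a cell needs to segregate its chromosomes. They were taken by symbol, and all 57 were found once in each of the 2 deposited count tables, among 56980 gene identifiers in the mouse table and 19818 gene names in the African spiny mouse table. The study exposed primary skin fibroblasts of 3 populations to gamma rays and sequenced their polyadenylated RNA in 84 libraries, 4 in each of 21 groups. The populations were African spiny mice (Acomys cahirinus), laboratory mice whose label is spelled C56BL6, and wild mice. In each population, cells received 0 (untreated), 10 or 20 Gy and were collected after 24 h, which the labels name batch B1, or received the same doses and were collected after 12 d, batch B2. Batch B2 also held cells labelled untreated and passaged, collected at 12 d. No genetic alteration is named in any label, and the origin of the wild mice, the sex and age of the animals, the passage number and the confluence of the cultures are not given in the sources used here. Time and batch coincide, so that a difference between 24 h and 12 d and a difference between the batches cannot be told apart, and every comparison was made within a time. Each replicate number of a population carries an animal code in the labels, and the 4 libraries of a group come from 4 animal codes.

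Mitosis genes are transcribed late in the cell cycle. In arrested cells the DREAM complex keeps them silent, and in dividing cells the activator complex of B-MYB and FOXM1 turns them on in G2, in many promoters through a short element called the cell cycle genes homology region. Their messages are abundant in dividing fibroblasts and scarce in quiescent, arrested or senescent ones. Ionising radiation breaks DNA and activates p53, whose target p21 favours the repressing form of the complex.

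Libraries held 26653561 to 39819857 counted fragments in C56BL6, 17419339 to 35984517 among the wild mice and 25552727 to 52857478 for A. cahirinus. At these depths 3 counts, taken as the floor below which a level is not read, correspond to between 0.057 and 0.172 CPM (counts per 1000000 counts of the library). All 9 fibroblast markers checked, collagens among them, were detected in each population, with summed levels of 17565.2 to 57736.9 in C56BL6, 14975.6 to 95441.0 among the wild libraries and 26044.8 to 46902.6 CPM for A. cahirinus. At least 1 library of each population also held counts of every other cell type marker checked. The summed levels of 5 keratinocyte markers reached 878.2 CPM in C56BL6 and at most 5.76 CPM in the other populations. C56BL6 replicate 1 carried the keratin gene Krt14 at 166.8 to 247.2 CPM at 24 h and 137.0 to 441.8 CPM at 12 d, against at most 0.0749 CPM in replicates 2 to 4, and Krt5 followed the same division. The highest summed level of 5 endothelial markers was 5.58 CPM in A. cahirinus, 14.8 CPM in wild mice and 31.6 CPM in C56BL6. Immune markers reached 5.62, 46.8 and 26.4 CPM in the same order, and melanocyte markers did not exceed 3.88 CPM in any library. The 5 muscle and mural markers summed to 577.5 to 1999.4 CPM in A. cahirinus, against a range of 35.6 to 2368.5 for wild mice and 44.2 to 307.3 for C56BL6. Of these, the myogenic factor Myod1 stood at 30.7 to 187.1 CPM in the A. cahirinus libraries and at most 0.137 CPM in the mouse libraries. The muscle filament gene Des stood at 241.6 to 1585.9 CPM in A. cahirinus, and in wild mice it was high in replicates 1 (727.8 to 1427.9 CPM) and 3 (307.5 to 387.1 CPM) at 24 h but in replicate 3 alone (129.8 to 425.5 CPM) at 12 d, when replicate 1 held 2.99 to 6.51 CPM. When genes were counted that stood at 10 CPM or more in all libraries of one wild number and under 0.5 CPM in all of another, replicates 1 and 4 gave 0 genes at 12 d but 38 at 24 h. Other wild pairs gave between 11 and 49 at 12 d. Wild numbers thus divide these genes differently at the 2 times. Wild counts at 12 d from fits without the animal as a block are also given without replicate 1 or 4. Fits with that block were not run without either number, apart from 1 library left out at 24 h. The part of these cell type markers in the results below was not tested, except where a value without the library is given. In bulk RNA, fewer dividing cells and less of a message in each dividing cell cannot be told apart.

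The sequences around their start sites were read from RefSeq promoters of build GRCm38.p6, which hold 250 bases before and 50 bases from the start; this build differs from the GRCm39 build of the counts, and no A. cahirinus promoter was used here. The table held 53 windows for 49 of the 57 genes. The hexamers TTTGAA and TTTAAA, forms of the cell cycle genes homology region, were searched on both strands, where TTTAAA is its own reverse complement. One or the other was present in 40 of 53 member windows (75.5%), against 9062 of 32851 windows of all genes (27.6%). TTTGAA alone was in 71.7% of member windows and 17.9% of all windows, TTTAAA in 20.8% and 13.2%. With its centre within 50 bases of the start, a hexamer was found in 66% of member windows and 8.43% of all windows. CCAAT, the box bound by NF-Y, was in 77.4% and 37.4%. These shares describe letters in a window and show neither binding nor regulation. The 5 windows below belong to genes whose levels are followed through the results. They were the first 5 in a set order whose window held a hexamer, so a hexamer in each was fixed by the choice. Bub1, also followed, has a window without a hexamer and was passed over. The printed windows are written 5′ to 3′ on the strand of the gene with the hexamers in capitals. They lie at chr7:122159185-122159484 (plus strand, Plk1), chr4:118437294-118437593 (minus strand, Cdc20), chr11:117848987-117849286 (plus strand, Birc5), chr5:30666636-30666935 (plus strand, Cenpa) and chr4:117178723-117179022 (minus strand, Kif2c).
Plk1: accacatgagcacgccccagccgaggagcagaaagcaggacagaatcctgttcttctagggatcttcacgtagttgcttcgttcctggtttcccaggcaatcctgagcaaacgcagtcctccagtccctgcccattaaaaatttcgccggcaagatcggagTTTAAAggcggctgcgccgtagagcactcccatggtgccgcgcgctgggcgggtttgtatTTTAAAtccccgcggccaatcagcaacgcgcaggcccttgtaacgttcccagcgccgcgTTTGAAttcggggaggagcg
Cdc20: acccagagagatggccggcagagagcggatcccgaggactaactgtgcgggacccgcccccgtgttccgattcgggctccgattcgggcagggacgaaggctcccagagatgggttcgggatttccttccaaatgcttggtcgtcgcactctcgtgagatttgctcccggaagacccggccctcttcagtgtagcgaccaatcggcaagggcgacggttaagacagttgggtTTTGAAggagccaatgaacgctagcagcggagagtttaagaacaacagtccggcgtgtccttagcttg
Birc5: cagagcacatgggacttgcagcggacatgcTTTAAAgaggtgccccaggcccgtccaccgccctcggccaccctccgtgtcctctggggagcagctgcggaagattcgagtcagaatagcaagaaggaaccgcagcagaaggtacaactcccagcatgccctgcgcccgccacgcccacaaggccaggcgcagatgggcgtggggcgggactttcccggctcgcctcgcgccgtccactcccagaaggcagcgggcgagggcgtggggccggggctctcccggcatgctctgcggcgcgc
Cenpa: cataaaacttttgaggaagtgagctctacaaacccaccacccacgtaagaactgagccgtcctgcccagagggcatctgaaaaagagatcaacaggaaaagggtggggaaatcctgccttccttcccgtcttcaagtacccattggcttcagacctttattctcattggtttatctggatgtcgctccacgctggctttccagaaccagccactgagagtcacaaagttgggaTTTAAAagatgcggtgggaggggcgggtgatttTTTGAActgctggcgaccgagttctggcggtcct
Kif2c: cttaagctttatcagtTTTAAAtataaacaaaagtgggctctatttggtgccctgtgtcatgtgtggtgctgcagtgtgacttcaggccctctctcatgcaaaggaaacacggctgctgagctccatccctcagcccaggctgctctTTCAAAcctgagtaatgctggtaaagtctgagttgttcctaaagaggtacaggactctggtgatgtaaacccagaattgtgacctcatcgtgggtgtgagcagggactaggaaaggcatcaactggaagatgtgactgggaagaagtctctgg
Plk1 has 3 hexamers, with first bases at -89, -29 and 31 relative to the start, and Cenpa has 2, at -17 and 17. Cdc20 has 1 at -18, in a window that also holds 2 CCAAT boxes, whereas the single hexamer of Birc5 lies far upstream at -220. In Kif2c the hexamers lie at -234 and -103, and the second is read on the opposite strand.

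In untreated cells at 24 h the members spanned a wide range of levels in each population (mean CPM per kilobase of gene model, ± SD, n = 4, compared between genes of one table only). Genes are named for their place in this order. In C56BL6, Cdc20, the activator of the anaphase-promoting complex, led with 38.1 ± 10.8 CPM per kilobase, ahead of Tpx2, a spindle assembly factor, with 33.2 ± 4.44. The condensin subunit Smc4 had 32.3 ± 4.33 and the contractile ring scaffold Anln 28.7 ± 11.3, so that these neighbours lay within each other's spread. Wild mice had the same genes in front, with 29.4 ± 3.94 for Tpx2 and 27 ± 4.95 for Cdc20. At the low end of both mouse orders were Esco2, the acetyltransferase that makes cohesion permanent (1.28 ± 0.272 in C56BL6), and the kinetochore protein Cenpk (1.15 ± 0.161). In A. cahirinus the NDC80 subunit Spc24 came first at 84.2 ± 18, followed by Cdc20 at 67.9 ± 13.5 and Ube2c, the ubiquitin-conjugating enzyme of the anaphase-promoting complex, at 65.2 ± 10.9. Birc5 (survivin) was last but one in that table at 0.515 ± 0.0657. The minus-end motor gene Kifc1 was at or under 3 counts in 27 of 28 A. cahirinus libraries and passed no filter on low counts there.

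The summed level of the 57 genes gives each library in a single value. In A. cahirinus at 24 h it was 3780.8, 3822.6, 4360.0 and 4819.4 CPM in untreated replicates 1 to 4, 1240.8, 938.3, 1407.9 and 1964.3 CPM after 10 Gy and 1319.4, 1036.6, 1624.2 and 2121.7 CPM after 20 Gy. Every irradiated library lay below every untreated library. In C56BL6 the sums were 3793.8, 2645.0, 3585.0 and 3174.0 CPM without irradiation, 2997.3, 2658.0, 3212.2 and 3018.9 CPM after 10 Gy and 3400.6, 3221.7, 4110.6 and 3589.0 CPM after 20 Gy, and the groups overlapped. Wild mice had 2020.3, 2814.8, 3303.1 and 2995.4 CPM untreated, 1691.7, 1446.0, 1752.2 and 1709.2 CPM after 10 Gy and 2171.5, 2170.3, 2784.6 and 1911.1 CPM after 20 Gy. All 4 wild libraries at 10 Gy lay below the untreated ones, while those at 20 Gy overlapped them.

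**Figure D1:**
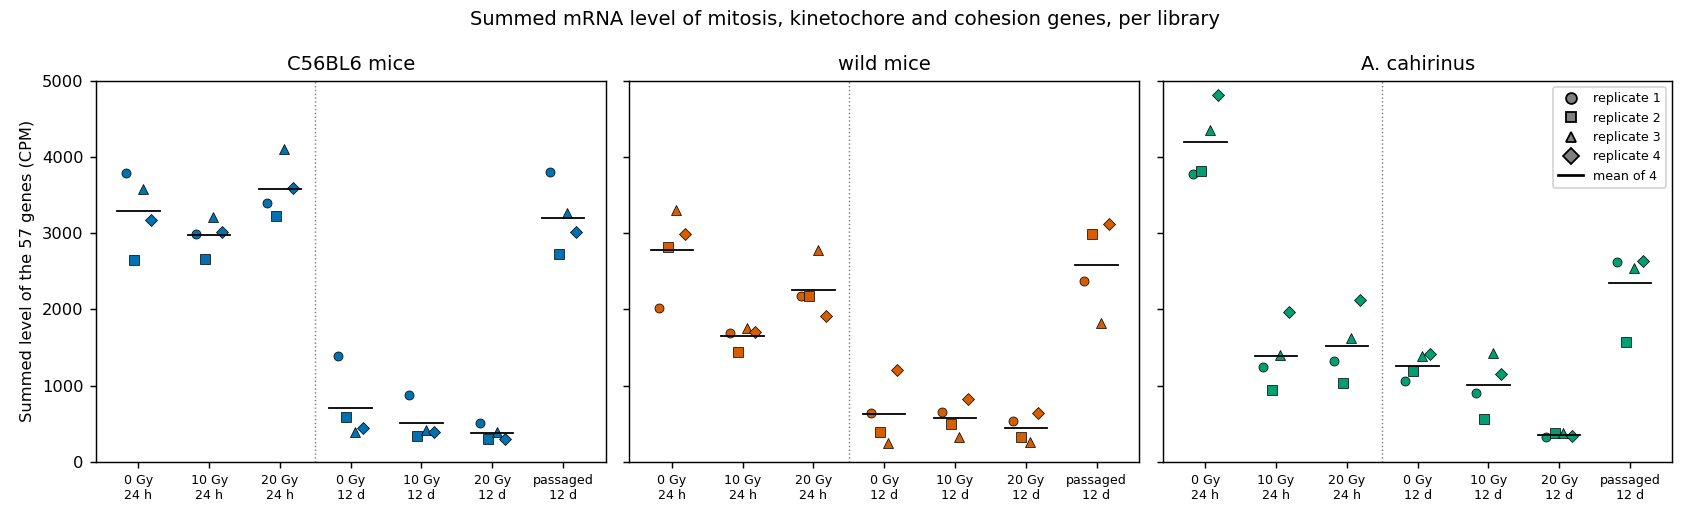
Summed level of the 57 mitosis genes in every library (CPM), by population, time and treatment; points are single libraries with a symbol for each replicate and bars the mean of 4. In A. cahirinus at 24 h the 8 irradiated libraries sit between 938.3 and 2121.7 CPM, below the untreated ones at 3780.8 to 4819.4 CPM, and levels are not to be compared between populations counted on different gene models.

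At 24 h after irradiation, mitosis genes were lower in A. cahirinus fibroblasts. After 20 Gy, 50 of the 56 genes tested were lower than in untreated cells and 0 were higher by edgeR's quasi-likelihood test with Benjamini-Hochberg adjustment over all genes at 0.05, against a background of 355 of 13146 genes tested (2.70%) lower. The median log2 fold change of the tested members was -1.50, against 0.03 over all genes tested. After 10 Gy, 54 of 56 were lower, with a median of -1.68 against 0.03 over all genes, and a background of 405 of 13083 genes tested (3.10%). Leaving out replicate 1 left 1 gene lower after 20 Gy and 0 after 10 Gy, and leaving out replicate 3 left 0 after either dose, at 3 libraries a group. Those fits did not hold the animal of origin. Here and below, counts without 1 replicate number come without the share of all genes in the same fit. They are not read as a result about the members. With the animal as a block and all 4 libraries a group, 55 of 56 were lower after 20 Gy (background 10.8%). After 10 Gy 56 of 56 were, where 1622 of 13083 genes tested were. All 56 genes tested were lower in each of the 4 animals at both doses, and the groups did not overlap for 54 of 56 at either dose. How many of all genes met either description was not counted. Without the animal block, 0 of 56 members differed between 20 and 10 Gy by edgeR (background 0%) and 0 by DESeq2. An unadjusted p under 0.05 was found for 0 members and for 55 of 13242 genes tested. A fit that also held the animal of origin as a block called 7 members higher at 20 than at 10 Gy, Nek2 and Ube2c among them (background 0.272%).

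Single genes show the size of this fall. The kinase Plk1 (ENSMUSG00000030867, chr7:121758662-121769096 on GRCm39 in mouse), which drives entry into mitosis, stood at 77, 66.6, 92.6 and 106.7 CPM in the untreated A. cahirinus replicates and at 13.7, 10.7, 22.2 and 32 CPM after 20 Gy. No irradiated library reached an untreated one, and the log2 fold change was -2.10 ± 0.33 (SE), adjusted p = 0.0128. Cenpa, the histone H3 variant that marks centromeres, went from 20.5, 24.6, 24.4 and 30.5 CPM to 6.55, 4.68, 7.89 and 12.2 CPM, -1.65 ± 0.27 (SE), adjusted p = 0.0156. The microtubule depolymerase Kif2c, which corrects faulty attachments, had 38.7, 35.6, 44.5 and 51.6 CPM untreated and 7.92, 6.09, 11.8 and 16.6 CPM after 20 Gy. Its change of -1.98 ± 0.29 (SE), adjusted p = 0.0101, was again without overlap. The 2 genes that fell most after 20 Gy act before mitosis proper. Fbxo5 (EMI1), which holds back the anaphase-promoting complex until mitosis, went from 14.8, 13.8, 18.5 and 22.8 CPM to 1.90, 2.02, 3.48 and 4.57 CPM (-2.52 ± 0.31 (SE), adjusted p = 0.00534). Esco2 went from 14.4, 16, 18.5 and 23.2 CPM to 3.54, 2.12, 3.61 and 4.83 CPM (-2.33 ± 0.26 (SE), adjusted p = 0.00371).

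The fall ran through every functional group at 24 h in A. cahirinus. All 8 mitotic kinases and checkpoint proteins were lower after 20 Gy (median log2 fold change -1.38), including Bub1, a checkpoint kinase of the kinetochore, at 75.4 ± 9.18 CPM untreated and 34.1 ± 6.31 CPM after 20 Gy (mean ± SD, n = 4). Of the 10 kinesins tested, 10 were lower (median -1.61), as were 4 of 4 cytokinesis factors (median -1.62) and 7 of 8 spindle factors (median -1.50). Among centromere and kinetochore proteins 7 of 8 were lower, among condensin subunits, Top2a and Mki67 6 of 7, among cohesion and separation factors 3 of 4, in the chromosomal passenger complex 3 of 4 and among regulators of the anaphase-promoting complex 2 of 3. The 6 tested members that did not pass the threshold after 20 Gy were Ube2c, Ckap2, Pttg1, Ncapd2, Spc24 and Birc5, some of them named after their values were seen. Spc24 had 104.8 ± 22.4 CPM untreated and 80.3 ± 15.2 CPM after 20 Gy (-0.36 ± 0.18 (SE), adjusted p = 0.349). Securin (Pttg1), which restrains separase, had 11.2 ± 2.65 and 9.72 ± 2.87 CPM (-0.19 ± 0.24 (SE), adjusted p = 0.758). After 10 Gy Spc24 and Pttg1 alone did not pass.

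The group holds Aurka, which works at spindle poles, Nek2, which splits centrosomes, the checkpoint proteins Ttk, Bub1b and Mad2l1, and the kinase Melk beside Plk1 and Bub1. In A. cahirinus the log2 fold changes of these kinases and checkpoint proteins at 24 h after 20 Gy ran from -2.10 (Plk1) to -1.10 (Aurka), and in C56BL6 from -0.10 (Melk) to 0.38 (Aurka). Aurkb, Incenp, Cdca8 (borealin) and Birc5 form the complex that corrects attachments and guides cytokinesis. In A. cahirinus, chromosomal passenger genes ran from -1.97 (Aurkb) to -1.14 (Cdca8), and in C56BL6 from -0.20 (Aurkb) to 0.12 (Cdca8). Ndc80, Nuf2, Spc24 and Spc25 make the complex that grips microtubules, Cenpe is a motor of the kinetochore, and Cenpf and Cenpk are further parts of it. In A. cahirinus, centromere and kinetochore genes ran from -1.81 (Cenpf) to -0.36 (Spc24), and in C56BL6 from -0.20 (Spc24) to 0.31 (Cenpe). Kif11 pushes spindle poles apart, Kif4 and Kif22 act on chromosome arms, Kif18a and Kif18b limit microtubule length, and Kif14, Kif20a, Kif20b and Kif23 act in the midzone and in cytokinesis. In A. cahirinus, kinesins ran from -2.02 (Kif11) to -1.42 (Kif18a), and in C56BL6 from -0.13 (Kif14) to 0.54 (Kif18b). Tpx2, Dlgap5 and Hmmr help to nucleate or organise spindle microtubules, Nusap1 and Ckap2 bind them, and Aspm focuses the poles. In A. cahirinus, spindle factors ran from -1.99 (Depdc1a) to -0.67 (Ckap2), and in C56BL6 from 0.11 (Aspm) to 0.77 (Ckap2). Prc1 bundles the midzone, Racgap1 and Ect2 activate the small GTPase RhoA there, and Anln links the contractile ring. In A. cahirinus, cytokinesis factors ran from -1.69 (Ect2) to -1.36 (Anln), and in C56BL6 from -0.07 (Racgap1) to 0.24 (Prc1). Smc2, Smc4, Ncapg, Ncapd2 and Ncaph are condensin I, and Top2a untangles DNA. In A. cahirinus, chromosome structure genes ran from -1.95 (Mki67) to -0.88 (Ncapd2), and in C56BL6 from -0.26 (Smc4) to 0.23 (Ncapd2). Sgo1 protects cohesin at centromeres until Espl1, freed from Pttg1, cuts it. In A. cahirinus, cohesion and separation genes ran from -2.33 (Esco2) to -0.19 (Pttg1), and in C56BL6 from -0.23 (Esco2) to 0.15 (Pttg1). Genes at the ends of these ranges were named after their values were seen, and values within 1 range were tested singly, with the counts given above.

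In C56BL6 fibroblasts at 24 h no member passed the test without the animal block. After 20 Gy, 0 of 57 members passed edgeR's test (background 13 of 14526 genes tested (0.0895%)). Their median log2 fold change was 0.10 against -0.01 over all genes. Without adjustment, 11 had a p under 0.05, where 1426 of all genes had. DESeq2 called 3 members higher, where it called 162 of all genes higher. Plk1 had 54.6, 39.6, 47.2 and 47.9 CPM in untreated replicates and 45.7, 44.3, 54 and 51.7 CPM after 20 Gy, overlapping ranges (0.05 ± 0.11 (SE), adjusted p = 0.942). Cenpa had 60.2, 40.6, 43.6 and 41.5 CPM and 61.5, 47.9, 60.2 and 59 CPM (0.30 ± 0.14 (SE), adjusted p = 0.542). With the animal block, 2 members were lower (Fbxo5 and Smc4), a share below the background of 9.45%, and 16 higher (background 8.20%). The largest rise was that of Ckap2, a spindle microtubule stabiliser, from 56.8, 47.3, 66.1 and 52.5 CPM to 76.9, 86.9, 116.6 and 99.2 CPM, higher in each of the 4 animals (0.77, adjusted p = 7.40e-06 with the animal block; adjusted p = 0.108 without it). Kif18b, a motor that shortens microtubules, came next (0.54, adjusted p = 1.79e-04 with the animal block).

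After 10 and 20 Gy the C56BL6 medians lay on either side of the untreated level. After 10 Gy, 51 of 57 members had a log2 fold change below 0 (median -0.16), and 0 passed without the block (background 0.00700%). An unadjusted p under 0.05 was found for 16 members and for 1116 of 14280 genes tested. DESeq2 called 2 members lower, where it called 51 of all genes lower. With the animal block 16 were lower (background 6.11%) and 1 was higher, Ckap2 (background 5.42%). Aurkb, the kinase of the chromosomal passenger complex, had 36.3, 29.5, 32.4 and 32.6 CPM untreated and 22.3, 22.8, 22.9 and 23.3 CPM after 10 Gy (-0.51, adjusted p = 7.78e-04 with the animal block). Set directly against 10 Gy, 20 Gy gave a log2 fold change at or above 0 in all 57 members (median 0.27 against 0.00 over all genes). 0 of these passed without the block by edgeR (background 0%). Without adjustment, 35 had a p under 0.05, where 277 of 14644 genes tested had. DESeq2 called 3 members higher, where it called 8 of all genes higher. With the block 44 of 57 were higher at 20 Gy, where 163 of 14644 genes tested (1.11%) were. Nusap1, which bundles spindle microtubules, had 24.9, 24.3, 29.9 and 25.8 CPM after 10 Gy and 34.4, 40.7, 45 and 37.2 CPM after 20 Gy, higher in all 4 animals (0.58, adjusted p = 5.86e-06 with the animal block). Mki67, the coat protein of mitotic chromosomes, was the least different, with 197.7 ± 19.3 and 201.5 ± 30.5 CPM (mean ± SD, n = 4).

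In wild mouse fibroblasts at 24 h no member passed edgeR's test without the animal block. After 20 Gy, 0 of 57 members passed without the animal block (background 0%), with a median log2 fold change of -0.40. An unadjusted p under 0.05 was found for 23 members and for 856 of 14473 genes tested. DESeq2 called 2 members lower and 1 higher, where it called 37 and 64 of all genes. With the block 24 were lower (background 5.19%) and 1 was higher, Ckap2 (background 7.36%). Fbxo5 had 8.85, 12.4, 13.8 and 14.4 CPM untreated and 8.28, 5.33, 6.12 and 3.75 CPM after 20 Gy (-1.08, adjusted p = 0.00999 with the animal block). Esco2 followed with 3.81, 8.49, 9.55 and 9.90 CPM and 4.59, 4.12, 4.58 and 2.53 CPM (-0.94, adjusted p = 0.0385 with the animal block). Ckap2 went the other way, from 43.5, 50.3, 48.1 and 51.7 CPM to 64.7, 78.5, 93 and 67.1 CPM, with no overlap (0.65, adjusted p = 0.00154 with the animal block). After 10 Gy the median was -0.82, and 0 of 57 passed with or without the block (background 0%). Without adjustment or block, 38 had a p under 0.05, where 603 of 14412 genes tested had. DESeq2 called 14 members lower, where it called 58 of all genes lower. A single library stands apart there. Replicate 1 at 10 Gy had 17843 genes detected, the fewest of any wild library, and Birc5 at 88.9 CPM against 18.6 to 19.8 CPM in the other 3. Without that library, a choice made after the data were seen, the blocked fit called 55 of 57 members lower (background 11.8%), and the fit without the block 0. For 20 against 10 Gy, 0 of 57 passed by edgeR (background 0%) and 0 by DESeq2. An unadjusted p under 0.05 was found for 17 members and for 72 of 14623 genes tested. The blocked fit without replicate 1 at 10 Gy called 43 higher at 20 Gy (background 1.53%).

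**Figure D2:**
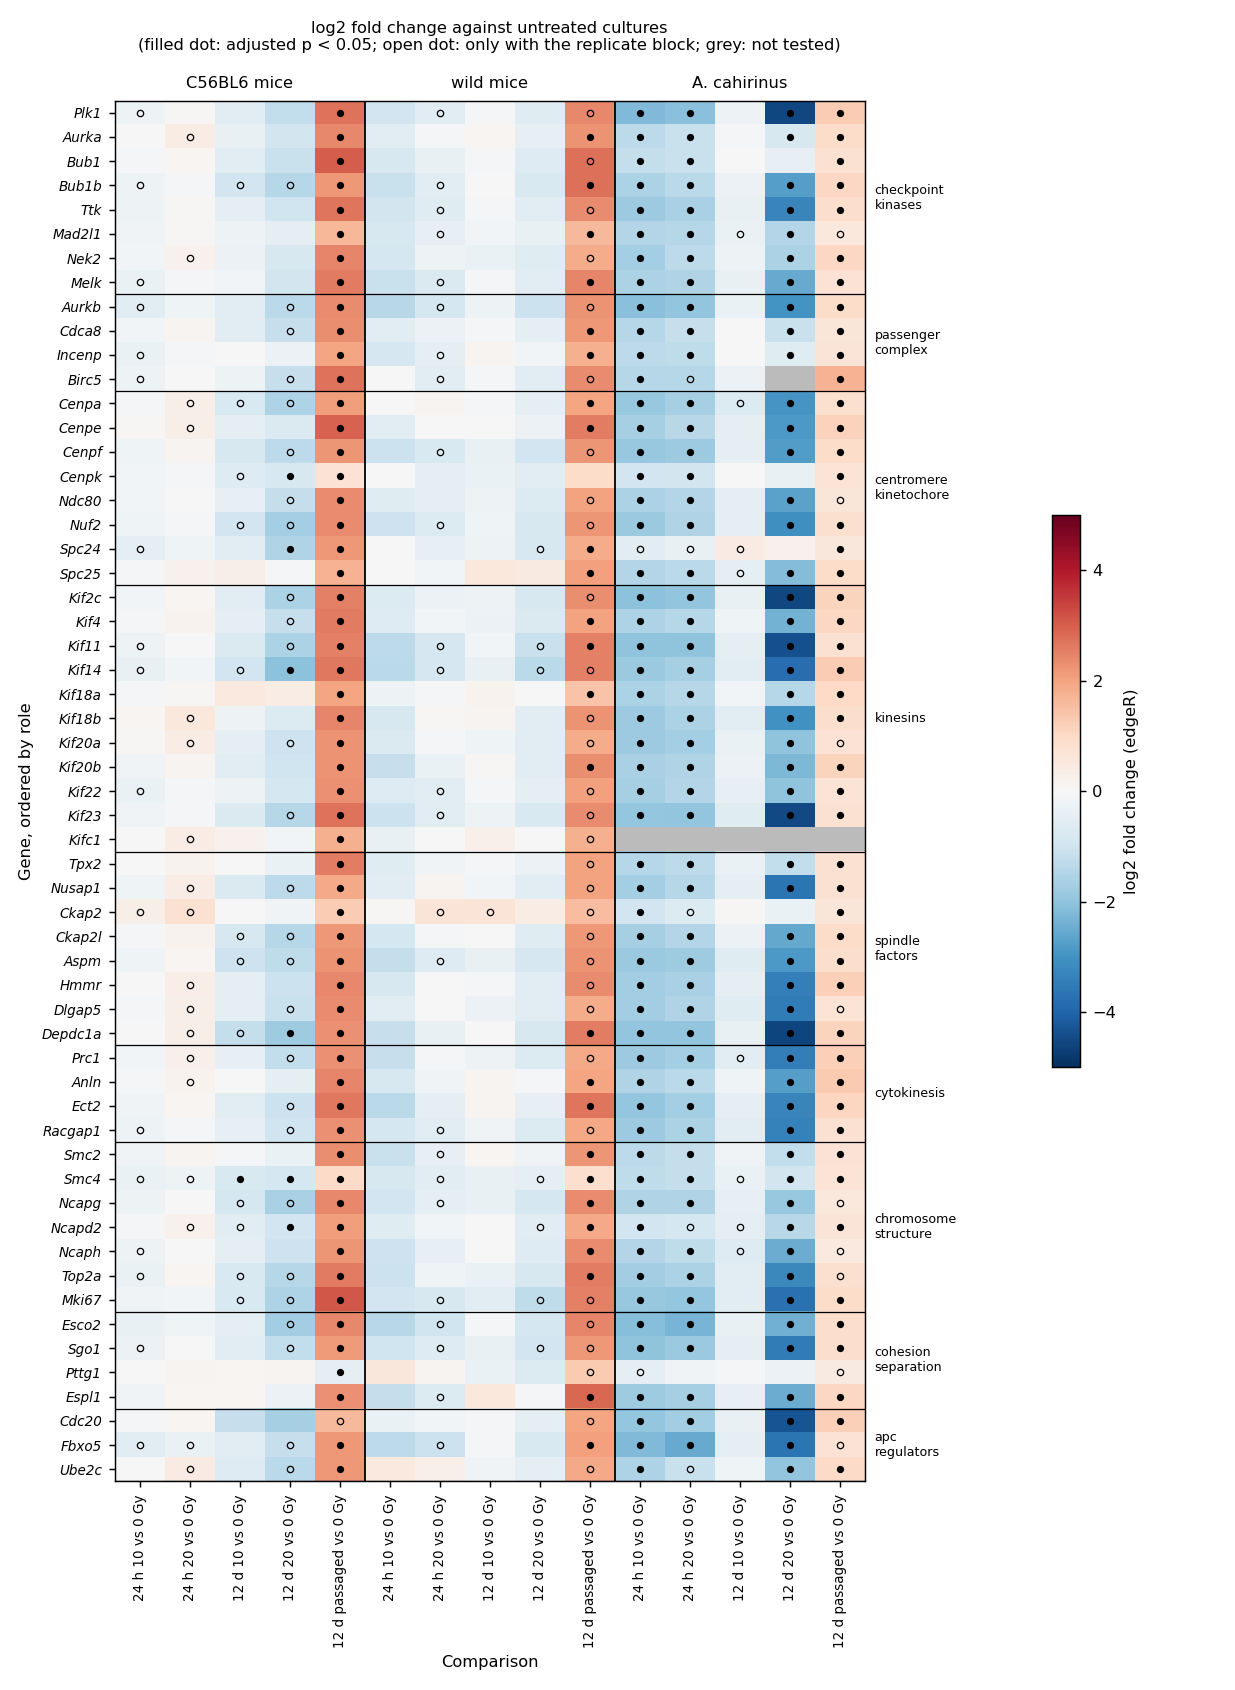
Log2 fold change of each of the 57 genes (rows, by functional group) against untreated cells of the same population and time (columns); filled dots pass edgeR's test, open dots pass with the animal block alone, and grey cells were not tested. The A. cahirinus column for 20 Gy at 24 h has 50 filled dots and the C56BL6 column has 0.

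The difference between populations in the response to 20 Gy at 24 h was tested directly, as an interaction in a fit of the gene symbols found once in both tables. Against C56BL6, 52 of 57 members had a lower log2 fold change in A. cahirinus and 0 a higher one (background 250 of 13596 genes tested (1.84%)), with a median difference of -1.60 against 0.02 over all genes. Plk1 differed by -2.15 ± 0.37 (SE), adjusted p = 0.00539, Fbxo5 by -2.17 ± 0.34 (SE), adjusted p = 0.00345, and Depdc1a, a mitotic spindle factor, by -2.28 ± 0.36 (SE), adjusted p = 0.00391. Spc24 (-0.16 ± 0.23 (SE), adjusted p = 0.902) and Pttg1 (-0.34 ± 0.28 (SE), adjusted p = 0.778) were at the other end. Without replicate 3 of both populations 0 of 57 passed, and with the block 54 did (background 7.59%). Kifc1 entered this fit on its mouse counts, and its value carries no information on A. cahirinus. Against wild mice the median difference was -1.14, and 0 of 57 members passed without the block (background 0%). Without adjustment, 51 had a p under 0.05, where 701 of 13613 genes tested had. DESeq2 called 20 members lower in A. cahirinus, where it called 63 of all genes lower. With the block 52 of 57 were lower in A. cahirinus (background 4.25%), Cenpa by -1.86 (adjusted p = 9.81e-05). Both differences use the same A. cahirinus libraries.

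**Figure D3:**
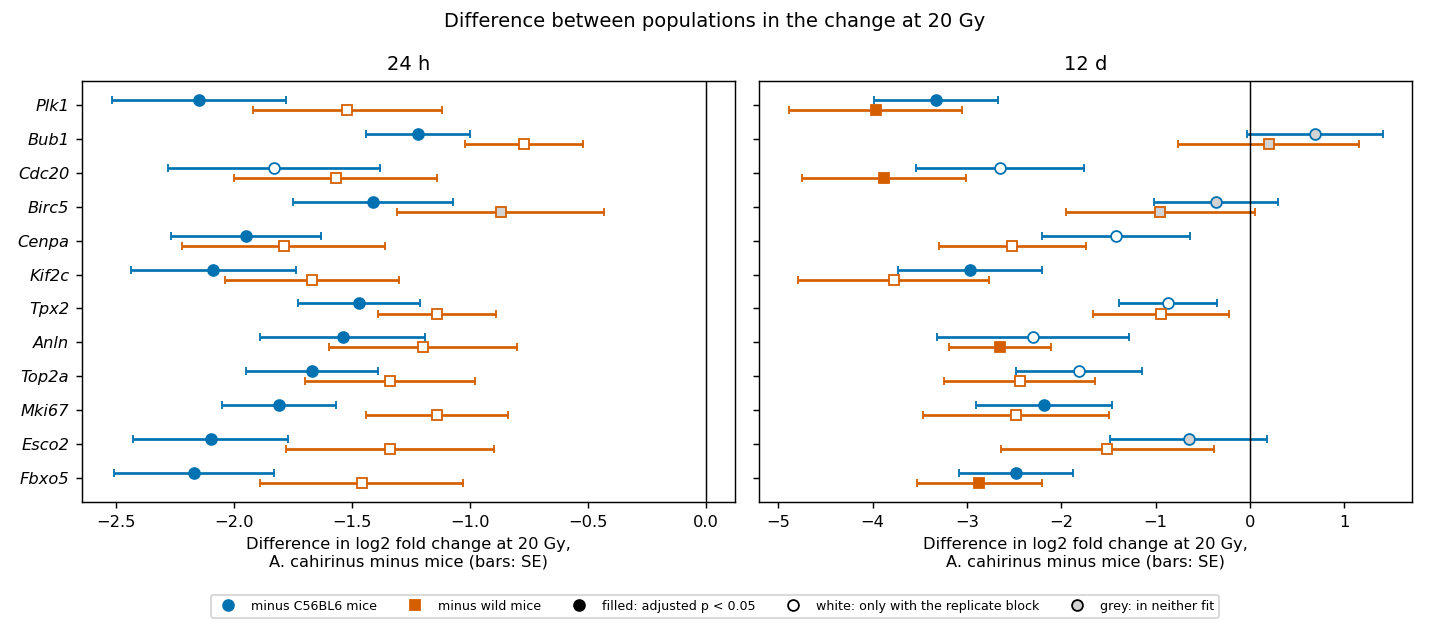
Difference in the log2 fold change after 20 Gy, A. cahirinus minus C56BL6 and A. cahirinus minus wild mice, for the 12 panel genes at 24 h and 12 d; bars are standard errors, filled points pass edgeR's test, white points pass with the animal block alone and grey points in neither fit. At 24 h all panel genes but Cdc20 are filled against C56BL6 and 0 against wild mice.

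At 12 d in A. cahirinus, mitosis genes were lower after 20 Gy than in untreated cells and than after 10 Gy. The summed level was 1059.7, 1185.5, 1388.7 and 1411.7 CPM in untreated replicates 1 to 4, 908.6, 563.4, 1425.0 and 1146.9 CPM after 10 Gy and 330.9, 374.6, 377.0 and 337.6 CPM after 20 Gy. The 20 Gy libraries lay below all others and within a narrow range, while the 10 Gy libraries overlapped the untreated ones. After 20 Gy, 50 of 55 members tested were lower and 0 higher, where 2430 of 13462 genes tested (18.1%) were lower, and the median log2 fold change was -2.68 against 0.00 over all genes. Kifc1 and Birc5 did not pass the filter on low counts in this comparison. After 10 Gy 0 of 56 passed edgeR's test (background 2.87%) and 0 DESeq2, with a median of -0.38. An unadjusted p under 0.05 was found for 6 members and for 2880 of 13215 genes tested, a larger share. With the block 7 were lower, Cenpa among them, a share close to the background of 13.4%. In the same fit 1 was higher, Spc24, a share below the background of 14.2%. In the direct comparison of 20 with 10 Gy, 26 of 55 were lower at 20 Gy, where 60 of 13564 genes tested (0.442%) were, and with the block 50 (background 9.62%). Leaving out replicate 2 gave a count of 51 without the block, and leaving out replicate 1, 3 or 4 gave 0. The share of all genes in those fits is not given, so these changes are not read as a result about the members. Replicate 2 at 10 Gy had the lowest summed level of its group, and its part in the count was not tested.

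Plk1 had 14.7, 17.6, 20.3 and 21.4 CPM in untreated A. cahirinus replicates at 12 d, 13.4, 5.79, 26.3 and 16.8 CPM after 10 Gy and 0.574, 0.470, 1.20 and 0.854 CPM after 20 Gy. Its log2 fold change from untreated was -4.56 ± 0.30 (SE), adjusted p = 8.75e-05, and from 10 Gy -4.31 ± 0.51 (SE), adjusted p = 0.0372. Kif2c went from 7.97, 10.7, 11.5 and 12.3 CPM to 0.287, 0.157, 0.901 and 0.398 CPM (-4.57 ± 0.45 (SE), adjusted p = 3.90e-04), and Depdc1a from 6.81, 8.10, 10.5 and 9.07 CPM to 0.191, 0.188, 0.682 and 0.341 CPM (-4.58 ± 0.40 (SE), adjusted p = 2.66e-04). These were the 2 lowest fold changes, and in neither gene did a 20 Gy library reach an untreated one. Cdc20 had 21.8, 27.1, 30 and 33.8 CPM untreated and 0.989, 1.16, 1.99 and 1.51 CPM after 20 Gy (-4.30 ± 0.25 (SE), adjusted p = 5.33e-05). Anln had 57, 58.9, 74.2 and 81.4 CPM and 7.97, 12.5, 10.3 and 9.53 CPM (-2.75 ± 0.18 (SE), adjusted p = 8.40e-05).

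The functional groups had different medians at 12 d in A. cahirinus, a difference that was not tested. The median log2 fold change after 20 Gy was -3.64 for the 3 regulators of the anaphase-promoting complex, -3.35 for the 4 cytokinesis factors, -3.13 for the 8 spindle factors and -2.71 for the 10 kinesins tested. Centromere and kinetochore proteins had a median of -2.74, kinases and checkpoint proteins -2.05, and chromosome structure proteins, condensin among them, -1.91. Of the genes that follow, Smc4, Aurkb, Incenp, Ndc80, Nuf2, Spc25, Ckap2 and Cenpk were named after their values were seen. Smc4 had 89.1 ± 7.35 CPM untreated and 47.5 ± 15.6 CPM after 20 Gy (-0.90 ± 0.20 (SE), adjusted p = 0.0114). Of the passenger complex, Aurkb fell by 3.0 on the log2 scale and its partner Incenp, the scaffold, by 0.62. The 5 tested members that did not pass were Bub1, Ckap2, Pttg1, Cenpk and Spc24. Bub1 had 23.7, 25.7, 29 and 25.8 CPM untreated and 15.5, 28.2, 20.8 and 13.2 CPM after 20 Gy (-0.42 ± 0.22 (SE), adjusted p = 0.179), and replicate 2 was the highest of the irradiated libraries. Spc24 had 53.7, 47, 60.4 and 46.8 CPM and 71, 32.2, 73 and 64.6 CPM (0.22 ± 0.24 (SE), adjusted p = 0.521). Its 3 partners in the NDC80 complex fell, Ndc80 by 2.68, Nuf2 by 3.06 and Spc25 by 2.15 on the log2 scale.

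**Figure D4:**
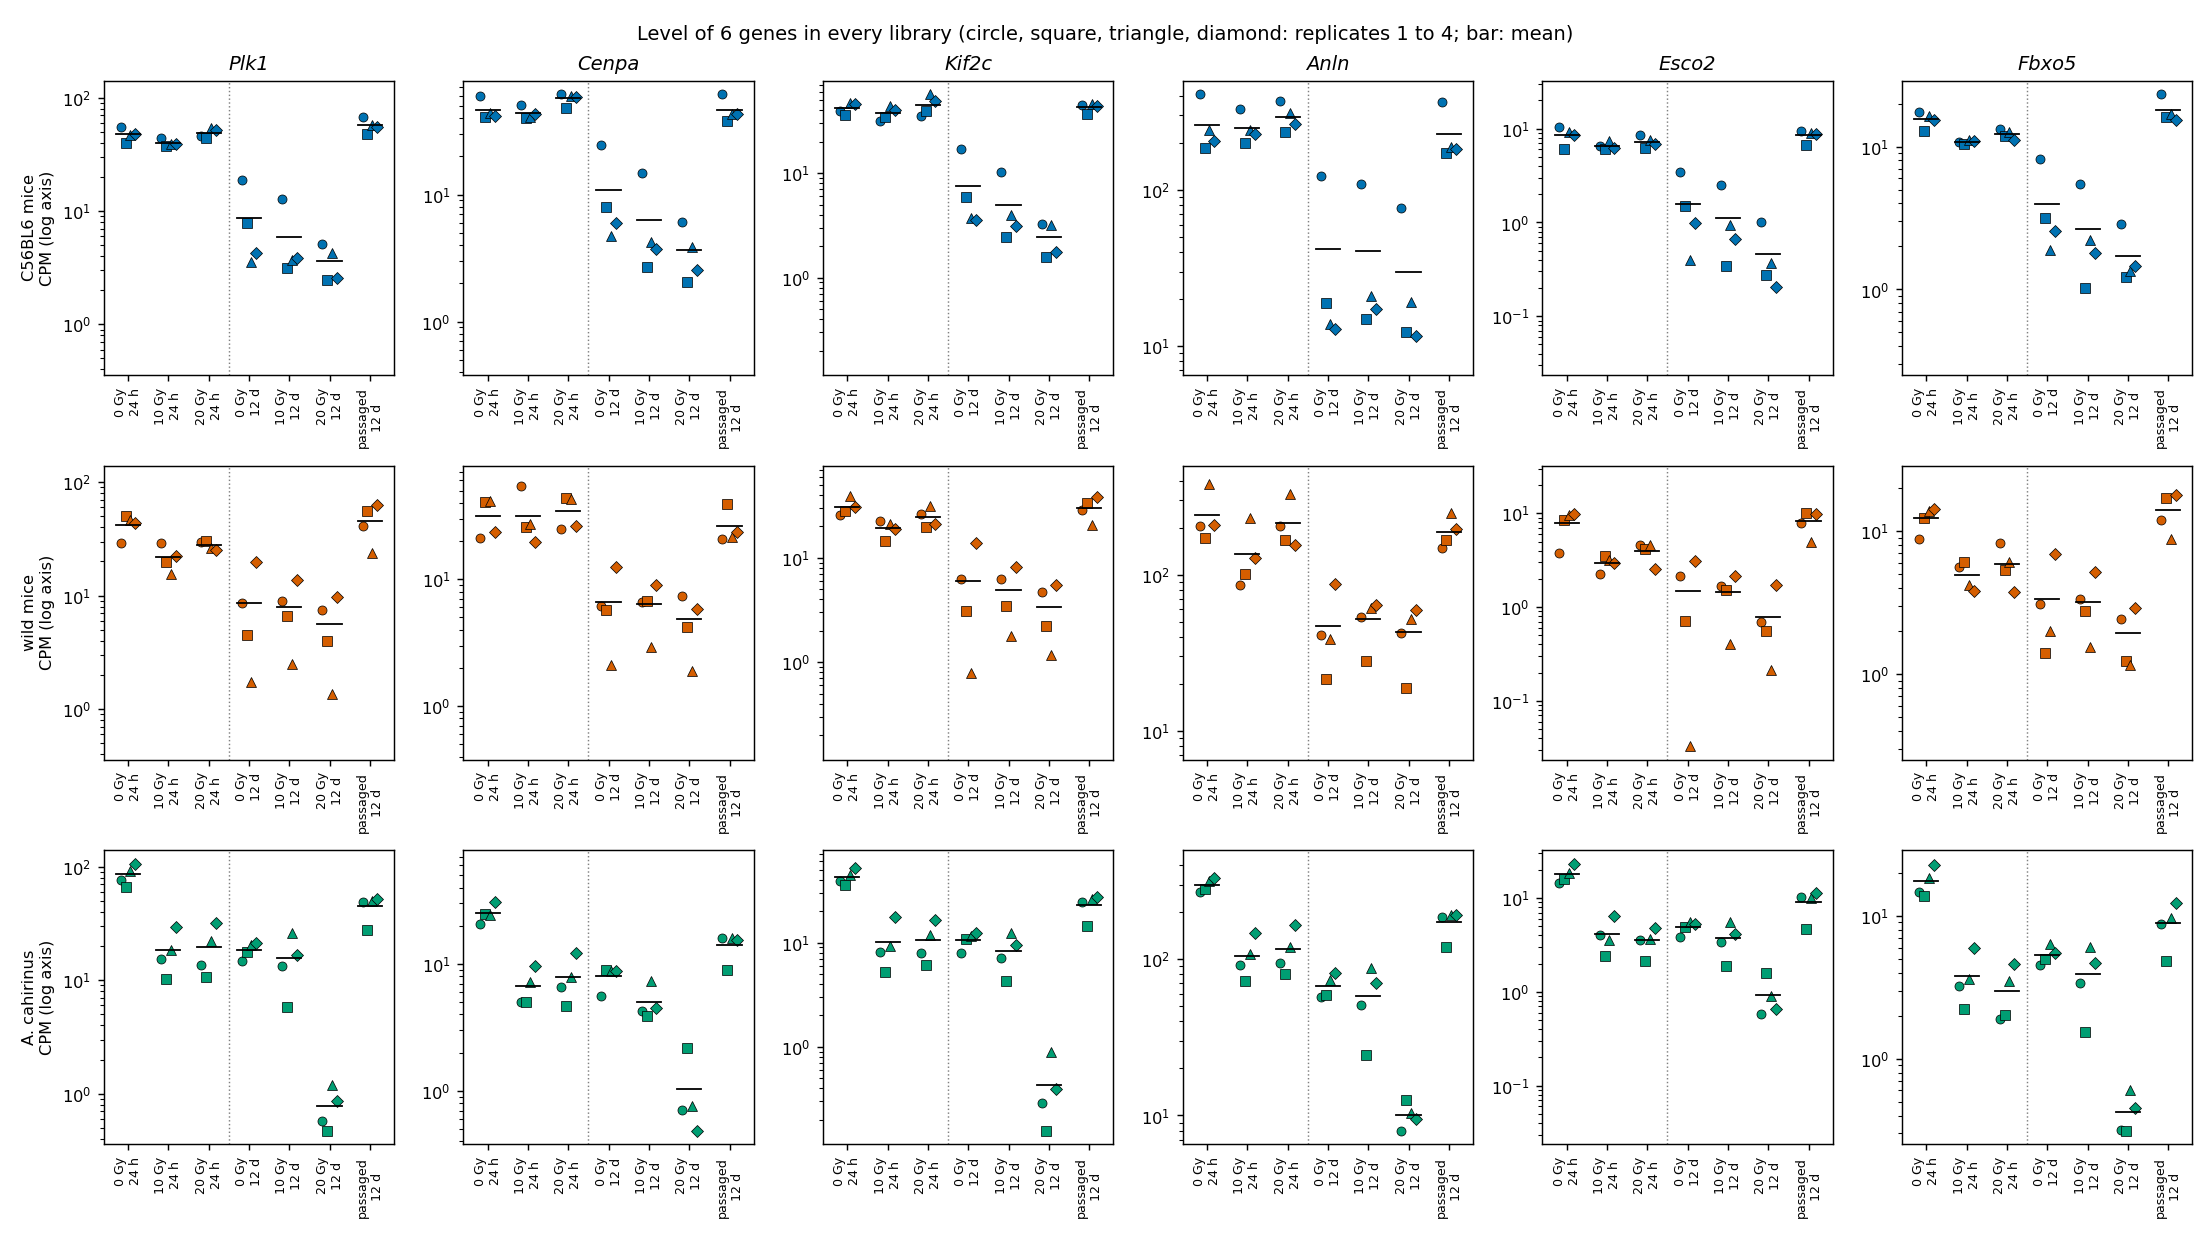
Levels (CPM, log axis) of 6 genes in every library by population (rows), time and treatment; points are single libraries with a symbol for each replicate, and bars are means. Plk1 in A. cahirinus at 12 d sits at 0.470 to 1.20 CPM after 20 Gy and at 14.7 to 21.4 CPM untreated.

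In C56BL6 at 12 d the summed level was 1385.8, 589.1, 391.4 and 439.3 CPM in untreated replicates 1 to 4. The highest was replicate 1, the library that carries keratin genes. After 10 Gy the sums were 874.0, 344.0, 423.3 and 388.1 CPM and after 20 Gy 514.3, 296.5, 388.5 and 299.6 CPM, with replicate 1 again highest. After 20 Gy, 6 of 57 members were lower and 0 higher, a share close to the background of 2050 of 15119 genes tested (13.6%), and the median log2 fold change was -1.11. With the animal block 33 were lower (background 24.3%), and without replicate 1 and without the block 19 were. Without replicate 2, 3 or 4 the count was 1. Kif14, a motor of the late spindle, had 6.89, 1.85, 1.26 and 2.01 CPM untreated and 1.06, 0.546, 0.945 and 0.279 CPM after 20 Gy (-2.05 ± 0.64 (SE), adjusted p = 0.0466). Depdc1a had 4.70, 2.33, 0.961 and 1.68 CPM and 1.17, 0.492, 0.716 and 0.406 CPM (-1.76 ± 0.54 (SE), adjusted p = 0.0453), and both genes were lower in each of the 4 animals. Plk1 had 18.8, 7.82, 3.58 and 4.29 CPM and 5.13, 2.46, 4.27 and 2.54 CPM, overlapping ranges (-1.23 ± 0.55 (SE), adjusted p = 0.129). Pttg1, at 19.5 ± 1.89 and 20.8 ± 1.92 CPM, and the chromosome-alignment motor Kif18a, at 3.70 ± 1.58 and 4.65 ± 1.95 CPM, were the 2 highest fold changes. After 10 Gy, 1 member was lower, Smc4, named after its value was seen (-0.75 ± 0.09 (SE), adjusted p = 0.00246; background 10.6%). With the block 13 were, a share close to the background of 19.7%, and without replicate 1 8. Between 20 and 10 Gy 0 of 57 passed (background 0%), 0 by DESeq2 and 3 with the block (background 0.0711%). Without adjustment or block, 5 had a p under 0.05, where 301 of 15463 genes tested had.

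In wild mice at 12 d the untreated libraries spread widely, with summed levels of 638.4, 396.8, 245.7 and 1209.7 CPM in replicates 1 to 4. The sums were 648.2, 493.5, 329.8 and 819.0 CPM after 10 Gy and 528.7, 320.3, 259.1 and 640.8 CPM after 20 Gy, and the 3 groups overlapped. After 20 Gy 0 of 57 members passed edgeR's test (background 10 of 14399 genes tested (0.0694%)) and 0 DESeq2, with a median log2 fold change of -0.58. An unadjusted p under 0.05 was found for 1 member and for 1984 of all genes, a larger share. With the block 7 were lower, a share close to its background of 7.79%. Kif14 had 2.37, 1.71, 0.362 and 7.25 CPM untreated and 1.17, 0.977, 0.108 and 2.26 CPM after 20 Gy (-1.23, adjusted p = 0.0256 with the animal block), and Mki67 had 19.3, 15.7, 2.34 and 58.9 CPM and 10.6, 6.18, 2.58 and 19.9 CPM (-0.97, adjusted p = 0.0476 with the animal block). Replicate 4 was the highest untreated library for both. After 10 Gy the median was -0.10, and 0 passed (background 0.264%), 0 also by DESeq2. Without adjustment, 1 member had a p under 0.05, where 1763 of 14391 genes tested had. With the block Ckap2 alone was higher (0.81, adjusted p = 0.0309 with the animal block; background 5.96%). Between 20 and 10 Gy all 57 members had a log2 fold change below 0, with a median of -0.50. Here 0 passed without the block (background 0%; 0 at an unadjusted p under 0.05, 0 by DESeq2) and 6 with it (background 0.251%), the spindle-pole motor Kif11 at -1.02, adjusted p = 0.00457 with the animal block. Leaving out wild replicate 1 or 4 also gave counts of 0 in these 3 comparisons.

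Cells labelled untreated and passaged expressed more of the mitosis genes at 12 d than untreated cells that carry no such label, in all 3 populations. In C56BL6, 55 of 57 members were higher and 1 lower, where 24.2% of all genes were higher and 25.5% lower, and the median log2 fold change was 2.30 against -0.02 over all genes. The summed level was 3805.4, 2733.4, 3267.7 and 3021.0 CPM. Mki67 had 56.1, 15.8, 9.02 and 12.1 CPM in the cells not labelled passaged and 226.0, 179.6, 229.6 and 175.9 CPM in the passaged ones (3.12 ± 0.58 (SE), adjusted p = 0.00306). Bub1 had 12.8, 4.58, 1.72 and 2.38 CPM and 54.6, 37.7, 43.4 and 40.5 CPM (3.04 ± 0.60 (SE), adjusted p = 0.00404). Pttg1 was the lower gene, with 21.8, 20, 17.4 and 18.8 CPM and 13.1, 16.3, 13.8 and 14.3 CPM (-0.45 ± 0.11 (SE), adjusted p = 0.00879), lower in each of the 4 animals. Cenpk rose least (0.71 ± 0.17 (SE), adjusted p = 0.00887).

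Among wild mice 25 of 57 members were higher in the passaged cells (background 770 of 13978 genes tested (5.51%)), with a median of 2.18, and with the block 56 were (background 15.1%). Without the block the count fell to 0 when replicate 1 or 4 was left out and to 1 without replicate 2, and it rose to 42 without replicate 3. Separase (Espl1), the protease that cuts cohesin, had 4.24, 1.80, 1.32 and 6.91 CPM and 22.5, 35.9, 14.8 and 33.6 CPM (2.89 ± 0.57 (SE), adjusted p = 0.0245). The checkpoint protein Bub1b had 9.33, 5.71, 1.88 and 16.3 CPM and 55.9, 64.5, 37.6 and 67.8 CPM (2.76 ± 0.59 (SE), adjusted p = 0.0286), and the groups of both genes did not overlap. Pttg1, named here after its value was seen, stood at 7.38 ± 5.32 CPM and 18.4 ± 4.54 CPM in wild mice, with a log2 fold change of 1.31 where C56BL6 had -0.45, and the difference between these was not tested. In A. cahirinus 47 of 56 members were higher (background 1575 of 12992 genes tested (12.1%)), with a median of 0.86. The summed level was 2625.3, 1576.6, 2543.7 and 2641.7 CPM, and replicate 2 was the lowest. Anln had 57, 58.9, 74.2 and 81.4 CPM and 186.6, 119.2, 192.0 and 191.7 CPM (1.32 ± 0.17 (SE), adjusted p = 0.00192). Birc5, 1 of those counted, had the highest fitted log2 fold change (1.74) at 0.205, 0.386, 0.419 and 0.729 CPM and 2.11, 0.887, 1.41 and 1.57 CPM. It did not pass the filter on low counts when 20 Gy was compared with untreated cells or with 10 Gy, so its value is a description. Without replicate 1, 3 or 4, 10, 12 and 27 members were higher, and without replicate 2 56 were.

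Set against the passaged cells, cells at 12 d after 20 Gy were low in nearly every member. In C56BL6, 56 of 57 were lower (background 21.2%) and Pttg1 was higher (0.55 ± 0.10 (SE), adjusted p = 0.00359; background 20.4%). The median log2 fold change was -3.52. Kif14 had 22, 14.9, 19.8 and 18.6 CPM in passaged and 1.06, 0.546, 0.945 and 0.279 CPM in irradiated cells (-4.72 ± 0.38 (SE), adjusted p = 7.07e-05). In wild mice 56 of 57 were lower (background 6.10%), with Ckap2 the exception (-1.16 ± 0.42 (SE), adjusted p = 0.123) and a median of -2.78. Without replicate 1 or 4 that count was 0, without replicate 2 it was 4 and without replicate 3 57. With the block it was 57, where 2635 of 14384 genes tested were lower. In A. cahirinus 55 of 56 were lower (background 23%), with a median of -3.49, and Spc24 did not pass (-0.36 ± 0.26 (SE), adjusted p = 0.298). Plk1 had 49.2, 28, 49.9 and 52.1 CPM in passaged A. cahirinus cells and 0.574, 0.470, 1.20 and 0.854 CPM after 20 Gy (-5.82 ± 0.34 (SE), adjusted p = 2.70e-05). Comparisons that use the same passaged, untreated or 20 Gy libraries share their error.

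The response to 20 Gy at 12 d, relative to untreated cells, differed between populations in some members. The median difference of A. cahirinus was -1.48 against C56BL6 and -1.98 against wild mice. These depend on the untreated cells, which lay at different distances from the passaged ones. For passaged against untreated cells the median was 2.30 in C56BL6, 2.18 in wild mice and 0.86 in A. cahirinus. For 20 Gy against passaged cells it was -3.52, -2.78 and -3.49 in the same order. A difference measured from passaged cells was not tested. Against C56BL6, 22 of 57 had a lower log2 fold change in A. cahirinus (background 10.5%) and 1 a higher one, Spc24 (1.71 ± 0.50 (SE), adjusted p = 0.0279; background 8.36%). With the block 41 were lower (background 20.7%) and Spc24 was again higher (background 17.5%). Plk1 differed by -3.33 ± 0.66 (SE), adjusted p = 0.00404, and Kif23, the motor of centralspindlin, by -3.10 ± 0.80 (SE), adjusted p = 0.0165. Without replicate 1, the keratin-bearing C56BL6 library among them, 42 were lower, and without replicate 2, 3 or 4 8, 2 and 3. Against wild mice 9 of 57 were lower (background 2.21%), and with the block 48 (background 13.6%) with Spc24 higher (background 9.80%). Plk1 differed by -3.97 ± 0.92 (SE), adjusted p = 0.0344 and Cdc20 by -3.88 ± 0.87 (SE), adjusted p = 0.0307. That count was 0 without replicate 1 or 4 and 5 without replicate 2. Birc5 and Kifc1, which had too few A. cahirinus counts at 12 d to be tested in that population, entered both fits on their mouse counts. Neither passed with or without the block, which leaves 55 members measured in both populations.

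Genes of the same machinery outside the 57 were counted from 6 further lists. Of 26 other kinetochore and centromere proteins, 20 were lower in A. cahirinus at 24 h after 20 Gy (median log2 fold change -0.99), and at 12 d 17 were lower and 1 higher (median -0.99). Over all genes tested, 2.70% were lower at 24 h, and at 12 d 18.1% were lower and 13.8% higher; with the animal block 10.8% were lower at 24 h. These shares are the background of the A. cahirinus counts in all 6 lists. Hjurp, the chaperone that deposits Cenpa at centromeres, fell by 2.24 at 24 h (adjusted p = 0.00774) and by 4.49 at 12 d (adjusted p = 2.45e-04) on the log2 scale. Cenpb, which binds centromeric repeats, was the gene higher at 12 d (0.56, adjusted p = 0.00511). In C56BL6 at 24 h 0 of these 26 passed edgeR's test after 20 Gy, 1 was higher with the block (background 8.20%), and the median was 0.01. At 12 d in C56BL6 7 were lower (background 13.6%) and 1 was higher (background 13%), and with the block 12 were lower (background 24.3%) and 2 higher (background 23.2%). Of 9 further checkpoint and mitotic kinase genes, 5 were lower in A. cahirinus at 24 h, where 2.70% of all genes were, 8 with the block (10.8% of all genes), and 8 at 12 d (18.1% of all genes).

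Of 14 genes of the cohesin ring and its loaders and releasers, 6 were lower in A. cahirinus at 24 h (median -0.31; background 2.70%) and 9 at 12 d (median -0.59; background 18.1%). Sgo2a, a guardian of centromeric cohesion, and Cdca5 (sororin), which stabilises the ring, had the lowest values at 12 d (-2.72, adjusted p = 4.61e-04 and -2.77, adjusted p = 8.05e-04), whereas the ring subunits Rad21, Smc3 and Smc1a changed by -0.88, -0.68 and -0.76. Of the 3 subunits particular to condensin II, Ncapg2 fell at 12 d (-2.14, adjusted p = 1.75e-04) and Ncaph2 and Ncapd3 did not pass (-0.19 and -0.13). The 16 subunits and partners of the anaphase-promoting complex had a median of -0.18 at 24 h, with 0 of 16 passing edgeR's test and 7 lower with the block (background 10.8%). At 12 d it was -0.15, with 5 lower (background 18.1%) and 2 higher (background 13.8%). The 14 kinesin genes of interphase transport had medians above 0 at 12 d. Their median was 0.40 in A. cahirinus, with 7 higher (background 13.8%) and 3 lower (background 18.1%), and 0.35 in C56BL6, with 8 higher (background 13%) and 0 lower. In wild mice it was 0.28, with 0 of 14 passing and 3 higher with the block (background 7.66%). The axonal motors Kif1a (1.21, adjusted p = 0.00853) and Kif5c (0.99, adjusted p = 0.0265) were among the higher genes in A. cahirinus, while Kif5a, a neuronal motor, was the lowest of the list (-0.80, adjusted p = 0.0450). These genes of the further lists were named after their values were seen.

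**Figure D5:**
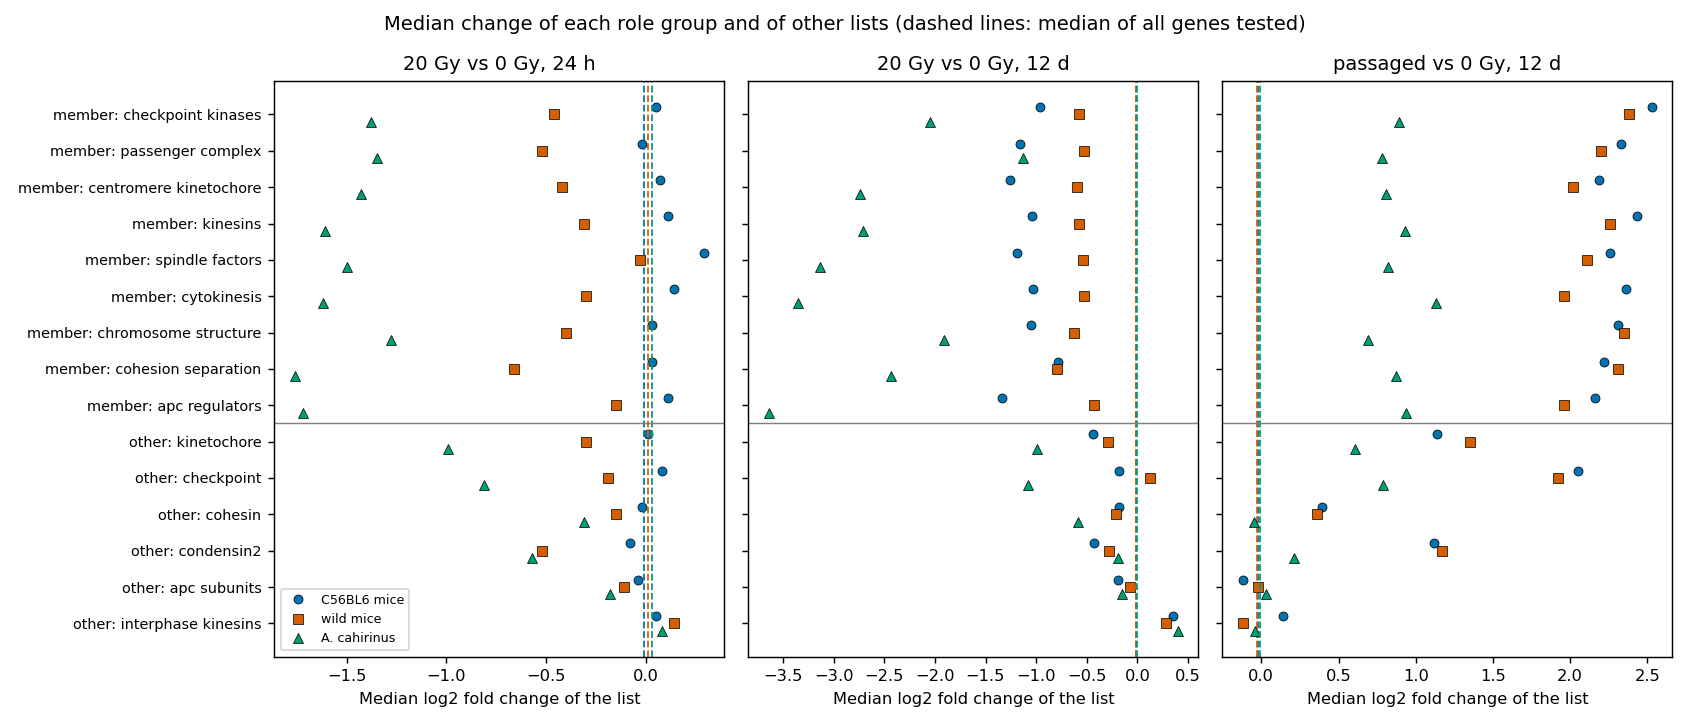
Median log2 fold change of the functional groups of the 57 genes and of the 6 further lists, for 20 Gy against untreated cells at 24 h and 12 d and for passaged against untreated cells at 12 d; each point is the median of the genes tested in 1 population, and dashed lines are the medians of all genes tested. At 12 d in A. cahirinus the regulators of the anaphase-promoting complex sit at -3.64 and interphase kinesins at 0.40.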

How the data were processed

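RNA of 84 cultures was read as 2 tables of raw counts per gene, deposited by the authors. Per the file headers, the counts were made by featureCounts 2.0.3 on Ensembl 108 gene models of GRCm39 for the mice and on gene names of the AcoCah2 assembly for A. cahirinus, with paired ends required to be mapped and no strand option; the tables also give each gene model's length, another column deposited by the authors. Trim Galore and HISAT2 are named in the submitters' processing notes without versions. The libraries were stranded per the labels' protocols, so that reads of overlapping or antisense genes and of near-identical copies could not be told apart here. Symbols were matched for 56236 of 56980 mouse identifiers. Counts per column summed to the depths given above, each set against a floor of 3 counts, and 0 count columns were left unassigned.

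Counts were tested with edgeR 4.0.16 in R 4.3.3: filterByExpr, TMM factors, quasi-likelihood test, Benjamini-Hochberg adjustment over all genes tested, threshold 0.05. Each fit held only the groups compared; the differences between populations were fitted on the 18109 symbols found once in each table. Levels are TMM-scaled CPM over a population and time, and fold changes are on the log2 scale. The scripts were tested on simulated data. Libraries with the same number and animal code deviated together (mean correlation 0.50 to 0.89 over 24 comparisons, lowest single pair 0.36; other pairs -0.29 to -0.12), so the blocked value is given where it changes a printed count by more than 1.5 times. No 2 of 126 replicate pairs agreed within sampling noise. Whether libraries of 1 animal code at the 2 times come from 1 culture is not stated. Without the block, p-values measure the spread between these cultures. With the block, they measure the spread left after the level of each animal code is taken out.

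The 57 genes, the further lists and the markers were chosen with earlier results of these data known. Genes named are a panel of 12 (Plk1, Bub1, Cdc20, Birc5, Cenpa, Kif2c, Tpx2, Anln, Top2a, Mki67, Esco2, Fbxo5) and the 2 highest and 2 lowest fold changes of each comparison; others are said to be named afterwards. Alternatives were DESeq2 1.42.0, its size factors, no filter, the animal block, all groups in a single fit, each replicate number left out, and, added later, 1 wild library left out. Counts without 1 replicate number are printed without the share of all genes called in the same fit. Their rise or fall is therefore not read as a result about the members. The CCAAT search was also added later.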

Additional observations from a re-analysis of the deposited data

Results flagged for a closer look

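In 28 of 273 groups of 4 libraries, counting the summed level and each of the 12 panel genes separately, 1 library lay far from the other 3, where chance gives about 1 in 20. In 15 of these it was C56BL6 replicate 1 at 12 d, which carries keratin genes, and it was the highest each time. In the untreated group it held 24.8 CPM for Cenpa (next 7.94), 17 CPM for Kif2c (next 5.87), 122.1 CPM for Anln (next 18.9), 56.1 CPM for Mki67 (next 15.8) and 69.8 CPM for Cdc20 (next 11.5). In the 10 Gy group it held 874.0 CPM for the summed level (next 423.3), 12.8 CPM for Plk1 (next 3.83), 10.5 CPM for Birc5 (next 3.98), 14.7 CPM for Cenpa (next 4.20), 43.1 CPM for Tpx2 (next 21.6), 109.9 CPM for Anln (next 20.9) and 21.2 CPM for Cdc20 (next 7.86). In the 20 Gy group it held 76.9 CPM for Anln (next 19.1) and 2.86 CPM for Fbxo5 (next 1.45). In the passaged group it held 368.1 CPM for Anln (next 187.4). The part of the keratin-bearing cells in these levels was not tested.

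Outside it, passaged A. cahirinus replicate 2 at 12 d was the lowest of its group, with 1576.6 CPM for the summed level (next 2543.7), 28 CPM for Plk1 (next 49.2), 8.90 CPM for Cenpa (next 15.5) and 119.2 CPM for Anln (next 186.6). Cenpa was highest in C56BL6 replicate 1 of the untreated group at 24 h, with 60.2 CPM (next 43.6). Birc5 was highest in wild replicate 1 of the 10 Gy group at 24 h, with 88.9 CPM (next 19.8). Cenpa was highest in wild replicate 2 of the passaged group at 12 d, with 39.4 CPM (next 23.5). Top2a was lowest in wild replicate 1 of the untreated group at 24 h, with 123.2 CPM (next 230.2). Cenpa was lowest in A. cahirinus replicate 1 of the untreated group at 12 d, with 5.58 CPM (next 8.76). Cenpa was highest in A. cahirinus replicate 3 of the 10 Gy group at 12 d, with 7.39 CPM (next 4.47). Cenpa was highest in A. cahirinus replicate 2 of the 20 Gy group at 12 d, with 2.16 CPM (next 0.764). Mki67 was highest in A. cahirinus replicate 3 of the untreated group at 24 h, with 318.7 CPM (next 284.5). Mki67 was highest in A. cahirinus replicate 3 of the 20 Gy group at 12 d, with 6.61 CPM (next 3.87).

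At 24 h the log2 fold change after 20 Gy differed between A. cahirinus and C56BL6 in 52 of 57 members by edgeR's interaction test at an adjusted p of 0.05, all lower in A. cahirinus, where 1.84% of all genes were lower; leaving out 1 replicate number at a time gave 0 to 47. The panel genes among them differed, A. cahirinus minus C56BL6, by -2.15 (Plk1), -1.22 (Bub1), -1.41 (Birc5), -1.95 (Cenpa), -2.09 (Kif2c), -1.47 (Tpx2), -1.54 (Anln), -1.67 (Top2a), -1.81 (Mki67), -2.10 (Esco2) and -2.17 (Fbxo5). In A. cahirinus each of these was lower in 4 of 4 animals. The Birc5 value rests on low counts there, at 0.504 ± 0.280 CPM after 20 Gy (mean ± SD, n = 4).

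At 12 d the log2 fold change after 20 Gy differed between A. cahirinus and C56BL6 in 23 of 57 members by edgeR's interaction test at an adjusted p of 0.05, 22 lower in A. cahirinus and 1 higher, where 10.5% of all genes were lower and 8.36% higher; leaving out 1 replicate number at a time gave 2 to 42. The panel genes among them differed, A. cahirinus minus C56BL6, by -3.33 (Plk1), -2.97 (Kif2c), -2.18 (Mki67) and -2.48 (Fbxo5).

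At 12 d the log2 fold change after 20 Gy differed between A. cahirinus and wild mice in 9 of 57 members by edgeR's interaction test at an adjusted p of 0.05, all lower in A. cahirinus, where 2.21% of all genes were lower; leaving out 1 replicate number at a time gave 0 to 8. The panel genes among them differed, A. cahirinus minus wild mice, by -3.97 (Plk1), -3.88 (Cdc20), -2.65 (Anln) and -2.87 (Fbxo5).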

How the results depend on the processing

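Counts of members passing the threshold, of 57 at most, changed little with other size factors (28 of 28 counts within 1.5 times). Counts over all genes moved with the fit as well, and are not printed beside each member count here. For C56BL6 12 d 20 Gy against untreated they were 4010 of 15119 genes tested, 7182 with the block and 5214 with DESeq2. With the animal code as a block (paired fit), counts were 18 (from 0) for C56BL6 24 h 20 Gy against untreated, 17 (from 0) for C56BL6 24 h 10 Gy against untreated, 44 (from 0) for C56BL6 24 h 20 Gy against 10 Gy, 33 (from 6) for C56BL6 12 d 20 Gy against untreated, 13 (from 1) for C56BL6 12 d 10 Gy against untreated, 3 (from 0) for C56BL6 12 d 20 Gy against 10 Gy, 25 (from 0) for wild 24 h 20 Gy against untreated, 7 (from 0) for wild 12 d 20 Gy against untreated, 1 (from 0) for wild 12 d 10 Gy against untreated, 6 (from 0) for wild 12 d 20 Gy against 10 Gy, 56 (from 25) for wild 12 d passaged against untreated, 7 (from 0) for A. cahirinus 24 h 20 Gy against 10 Gy, 8 (from 0) for A. cahirinus 12 d 10 Gy against untreated, 50 (from 26) for A. cahirinus 12 d 20 Gy against 10 Gy, 52 (from 0) for A. cahirinus minus wild mice at 24 h, 42 (from 23) for A. cahirinus minus C56BL6 at 12 d and 49 (from 9) for A. cahirinus minus wild mice at 12 d. The block changed no other count by more than 1.5 times. With DESeq2, counts were 3 (from 0) for C56BL6 24 h 20 Gy against untreated, 2 (from 0) for C56BL6 24 h 10 Gy against untreated, 3 (from 0) for C56BL6 24 h 20 Gy against 10 Gy, 21 (from 6) for C56BL6 12 d 20 Gy against untreated, 3 (from 0) for wild 24 h 20 Gy against untreated, 14 (from 0) for wild 24 h 10 Gy against untreated, 56 (from 25) for wild 12 d passaged against untreated, 48 (from 26) for A. cahirinus 12 d 20 Gy against 10 Gy, 20 (from 0) for A. cahirinus minus wild mice at 24 h and 21 (from 9) for A. cahirinus minus wild mice at 12 d. With all groups in a single fit, counts were 1 (from 0) for C56BL6 24 h 20 Gy against untreated, 1 (from 0) for C56BL6 24 h 10 Gy against untreated, 20 (from 6) for C56BL6 12 d 20 Gy against untreated, 2 (from 1) for C56BL6 12 d 10 Gy against untreated, 1 (from 0) for wild 12 d 20 Gy against untreated, 39 (from 25) for wild 12 d passaged against untreated, 48 (from 26) for A. cahirinus 12 d 20 Gy against 10 Gy and 28 (from 47) for A. cahirinus 12 d passaged against untreated. Without the filter, counts were 16 (from 25) for wild 12 d passaged against untreated. With the block and without wild 24 h 10 Gy replicate 1 (added after the data were seen), counts were 55 (from 0) for wild 24 h 10 Gy against untreated and 43 (from 0) for wild 24 h 20 Gy against 10 Gy. Without the block, leaving out that library gave 0 in both. Leaving out 1 replicate number at a time gave 1 to 19 for C56BL6 12 d 20 Gy against untreated, 1 to 8 for C56BL6 12 d 10 Gy against untreated, 0 to 42 for wild 12 d passaged against untreated, 0 to 57 for wild 12 d 20 Gy against passaged, 0 to 52 for A. cahirinus 24 h 20 Gy against untreated, 0 to 54 for A. cahirinus 24 h 10 Gy against untreated, 0 to 1 for A. cahirinus 12 d 10 Gy against untreated, 0 to 51 for A. cahirinus 12 d 20 Gy against 10 Gy, 10 to 56 for A. cahirinus 12 d passaged against untreated, 0 to 47 for A. cahirinus minus C56BL6 at 24 h, 2 to 42 for A. cahirinus minus C56BL6 at 12 d and 0 to 8 for A. cahirinus minus wild mice at 12 d. Among panel genes after 20 Gy, the log2 fold change turned sign without the replicate named, over the range -0.00 to 0.16 for Plk1 in C56BL6 at 24 h (from 0.05; replicate 3), -0.01 to 0.36 for Cdc20 in C56BL6 at 24 h (from 0.11; replicate 3), -0.04 to 0.11 for Birc5 in C56BL6 at 24 h (from 0.01; replicate 2, 3 and 4), -0.58 to 0.02 for Tpx2 in C56BL6 at 12 d (from -0.35; replicate 1), -0.45 to 0.18 for Tpx2 in wild at 12 d (from -0.28; replicate 4) and -0.29 to 0.18 for Anln in wild at 12 d (from -0.10; replicate 4). Birc5 was at -0.01 without replicate 2 or 4, and 0 of these were past the threshold. Why counts moved was not tested; fits with 3 libraries a group have less power by construction.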
